A study of Solanum lycopersicum with 15 samples.

Results

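Tomato (Solanum lycopersicum) roots given iron together with nitrate were compared with roots given iron together with urea, with 3 libraries on each side, 6 of the 15 libraries of the series. Both regimes were chosen by their labels, and both contain iron, so the 2 groups differ in the nitrogen form supplied. The other 9 libraries came from roots given iron and ammonium, from roots given iron without nitrogen, and from control roots with neither iron nor nitrogen, 3 of each. They entered the fit to estimate the spread between libraries and serve below as points of reference. The sources used here state no cultivar, plant age, nutrient concentration or time after resupply, nor whether replicates came from separate plants. The p-values therefore measure the spread between these libraries, which may be technical.

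Nitrate and urea reach the same amino acids by different routes. Nitrate is taken up together with protons, reduced in the root or shoot first to nitrite and then to ammonium by nitrate and nitrite reductase, and it also acts as a signal that changes gene expression. Urea is taken up as an intact molecule and hydrolysed by the nickel enzyme urease to ammonium and carbon dioxide, so it supplies nitrogen that needs no reduction. Ammonium from either source is incorporated by glutamine synthetase and glutamate synthase. Iron is a cofactor of nitrate reductase, nitrite reductase and ferredoxin-dependent glutamate synthase, and tomato roots take it up after reducing ferric chelates at the root surface.

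The values were FPKM (fragments per kilobase of a transcript, corrected for the number mapped in a library) for 34075 genes. A gene entered the comparison when it reached at least 1 FPKM in at least 3 of the 15 libraries, which left 18889 genes. The FPKM values summed to 562136 to 569455 in the nitrate libraries and 557098 to 570704 in the urea libraries, and their absolute depth is unknown. Across the tested genes, nitrate libraries correlated with urea libraries at 0.920 to 0.943, against 0.968 to 0.969 among nitrate libraries and 0.973 to 0.974 among urea libraries. These correlations are over genes, which are not independent replicates, and describe only how alike the libraries were. Urea replicate 1 was the library least like the nitrate libraries, at 0.920 to 0.930. The file pairs no identifier with a gene name, and 0 identifiers were found in the annotation table used here, so genes are given by identifier, few are printed, and no role is assigned to any of them. Markers of root and of green tissue could not be looked up for the same reason, and the tissue was taken from the label.

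Nitrate roots and urea roots differed in 3704 of the 18889 tested genes (19.6% of those tested; limma with Benjamini-Hochberg adjustment over all of them, adjusted p under 0.05). Expression was higher with nitrate in 2135 of them (11.3%) and lower in 1569 (8.31%). Most of these differences were under 2-fold on the log2(FPKM + 1) scale, and 25.8% of the called genes reached 2-fold. The median called gene differed by 0.66 on that scale, and 1548 called genes (41.8%) differed by less than 1.5-fold. At least a 2-fold difference was reached by 502 genes higher with nitrate (2.66%) and 452 genes lower with nitrate (2.39%), and the nitrate libraries did not overlap the urea libraries in 498 and 447 of these. Over all tested genes the groups did not overlap in 6748 (35.7%).

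Which direction was the more frequent depended on the scaling of the libraries. With median-of-ratios size factors 1743 genes were called higher and 1980 lower with nitrate, and after quantile normalization 1891 and 1842. The median tested gene was 0.06 higher with nitrate as deposited and 0.00 with size factors. Without urea replicate 1 the genes called higher numbered 1411 and those called lower 1126. At 2-fold or more, that fit gave 407 genes higher and 421 lower, so there the split turned without a change of scaling.

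**Figure D1:**
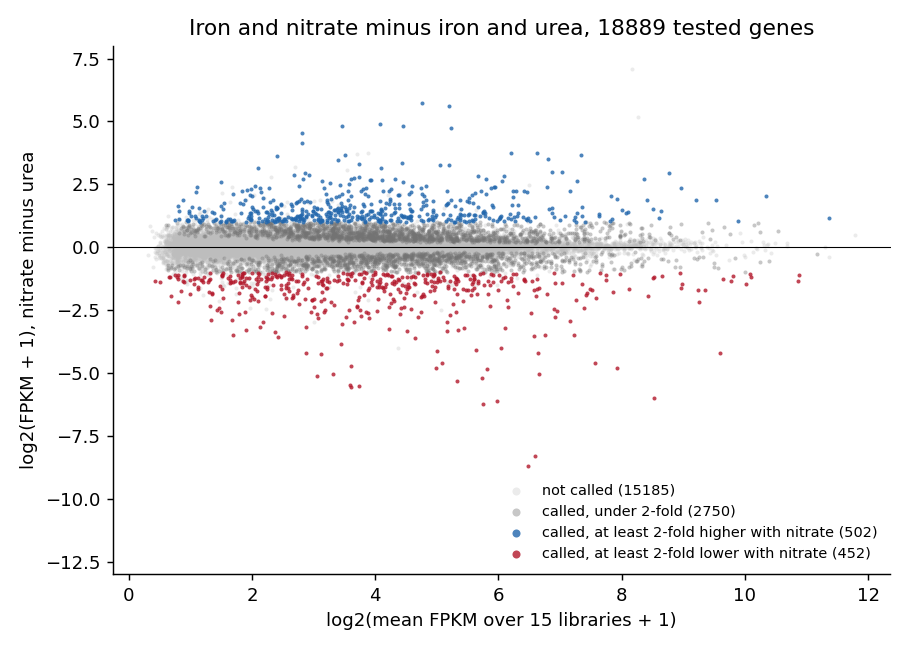
Difference in log2(FPKM + 1), nitrate minus urea, against mean expression over the 15 libraries, 1 point per tested gene. The 502 blue and 452 red points are called at 2-fold or more, and the points farthest from 0 lie on the lower side, where expression was higher with urea.

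The largest differences were of genes expressed more with urea. Called genes that differed by at least 4-fold numbered 101 higher (0.535%) and 120 lower (0.635%) with nitrate. At 8-fold or more there were 22 higher (0.116%) and 44 lower (0.233%), and at 16-fold or more 8 higher (0.0424%) and 26 lower (0.138%). Whereas the overall split turned with the scaling, the counts past 16-fold were 8 higher and 26 lower with size factors too. Leaving out single nitrate or urea libraries gave 8 to 11 higher and 21 to 27 lower. A pseudocount of 0.1 in place of 1 enlarged the differences of low genes and gave 18 higher and 48 lower.

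**Figure D2:**
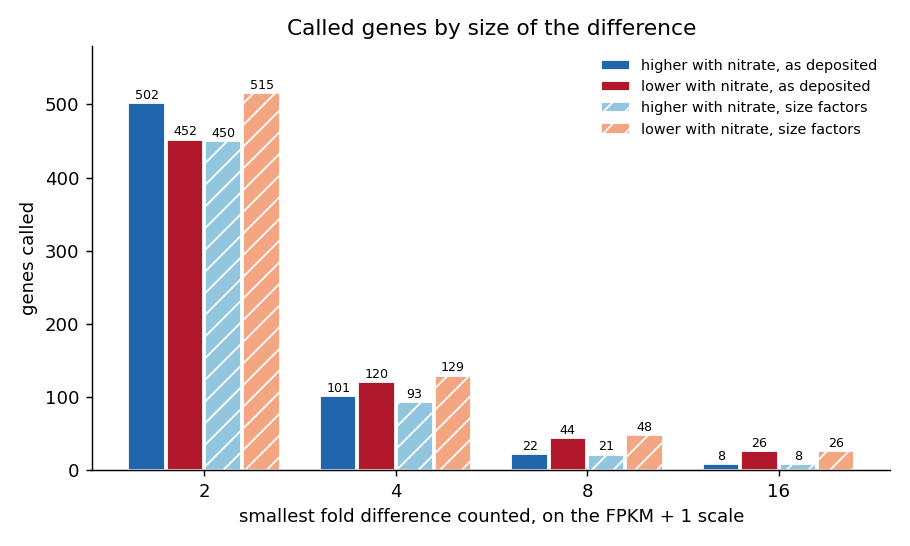
Number of genes called at or above each fold difference on the FPKM + 1 scale, higher or lower with nitrate, as deposited (solid) and with size factors (hatched). At 2-fold the direction with more genes changes with the scaling, with 502 against 452 as deposited and 450 against 515 with size factors, whereas from 4-fold upwards the genes lower with nitrate are more numerous under both.

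The 26 genes at least 16-fold lower with nitrate lay on 11 chromosomes and included abundant transcripts. Their means ran from 0 to 158 FPKM with nitrate (median 3.37) and from 26.2 to 2887 FPKM with urea (median 169). Urea roots had the highest mean of the 5 regimes in all 26, which the choice of genes higher with urea itself favours. In the libraries that did not enter the comparison, few of these genes stood nearer to the urea level than to the nitrate level: 4 did so in ammonium roots, 1 in roots given iron alone and 1 in control roots. Ammonium roots exceeded iron-alone roots in 22 of the 26, and likewise in all 8 genes at least 16-fold higher with nitrate. Among the genes that differed by at least 2-fold this was so in 262 of the 502 higher (52.2%) and 277 of the 452 lower (61.3%), against 45.1% of all tested genes.

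Solyc10g050990.ITAG4.0 on chromosome 10 and Solyc06g050870.ITAG4.0 on chromosome 6 had the largest differences among genes lower with nitrate. Solyc10g050990.ITAG4.0 was listed at 0 FPKM in all 3 nitrate libraries and stood at 430, 535 and 300 FPKM in the urea libraries (limma, adjusted p = 1.02e-05). It was at 19.1, 3.00 and 29.5 FPKM with ammonium, at 0, 0 and 4.87 FPKM with iron alone and at 0, 0 and 5.73 FPKM in control roots. The urea libraries thus lay above every other library, and iron-alone and control roots overlapped. The tested gene that precedes it in identifier order was likewise listed at 0 in the 3 nitrate libraries and stood at 48.9, 85.5 and 23.6 FPKM with urea (adjusted p = 1.67e-05). Whether these neighbours are near-identical copies that share reads could not be checked.

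For Solyc06g050870.ITAG4.0 the nitrate libraries held listed values of 1.06, 0 and 0.458 FPKM, and the urea libraries 600, 397 and 384 FPKM (limma, adjusted p = 1.35e-07). It reached 11.5, 7.56 and 20.6 FPKM with ammonium, 1.49, 2.43 and 11.0 FPKM with iron alone and 1.71, 0.730 and 0.586 FPKM in control roots. Nitrate and control libraries overlapped, and all 3 ammonium libraries exceeded both. Ammonium and iron-alone libraries overlapped. A value of exactly 0 can be a failed estimate in FPKM tables, so no fold difference is given for these genes.

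Among called genes higher with nitrate, Solyc03g119180.1.ITAG4.0 on chromosome 3 and Solyc01g108630.ITAG4.0 on chromosome 1 differed most. Solyc03g119180.1.ITAG4.0 stood at 90.1, 118 and 126 FPKM with nitrate and was listed at 8.00, 0 and 0 FPKM with urea (limma, adjusted p = 7.48e-05). It was at 7.38, 11.6 and 17.5 FPKM with ammonium, at 1.54, 5.19 and 4.67 FPKM with iron alone and at 1.82, 0 and 0 FPKM in control roots. The nitrate libraries lay above all 12 others, and the urea libraries overlapped each of the other 3 regimes.

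Solyc01g108630.ITAG4.0 stood at 134, 117 and 156 FPKM with nitrate and at 1.30, 3.08 and 1.35 FPKM with urea. The log2 difference was 5.60 with a standard error of 0.30 and a 95% interval of 4.95 to 6.24 (limma, adjusted p = 6.62e-08). In ammonium roots it was at 13.0, 9.79 and 19.2 FPKM, with iron alone at 7.03, 5.33 and 12.9 FPKM and in control roots at 18.9, 21.3 and 15.3 FPKM. Here both forms departed from the rest in opposite directions, with every nitrate library above and every urea library below all 9 libraries of the other regimes. All 4 printed genes were called under each of the 15 alternatives compared for them, which their choice as the largest called differences itself favours.

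**Figure D3:**
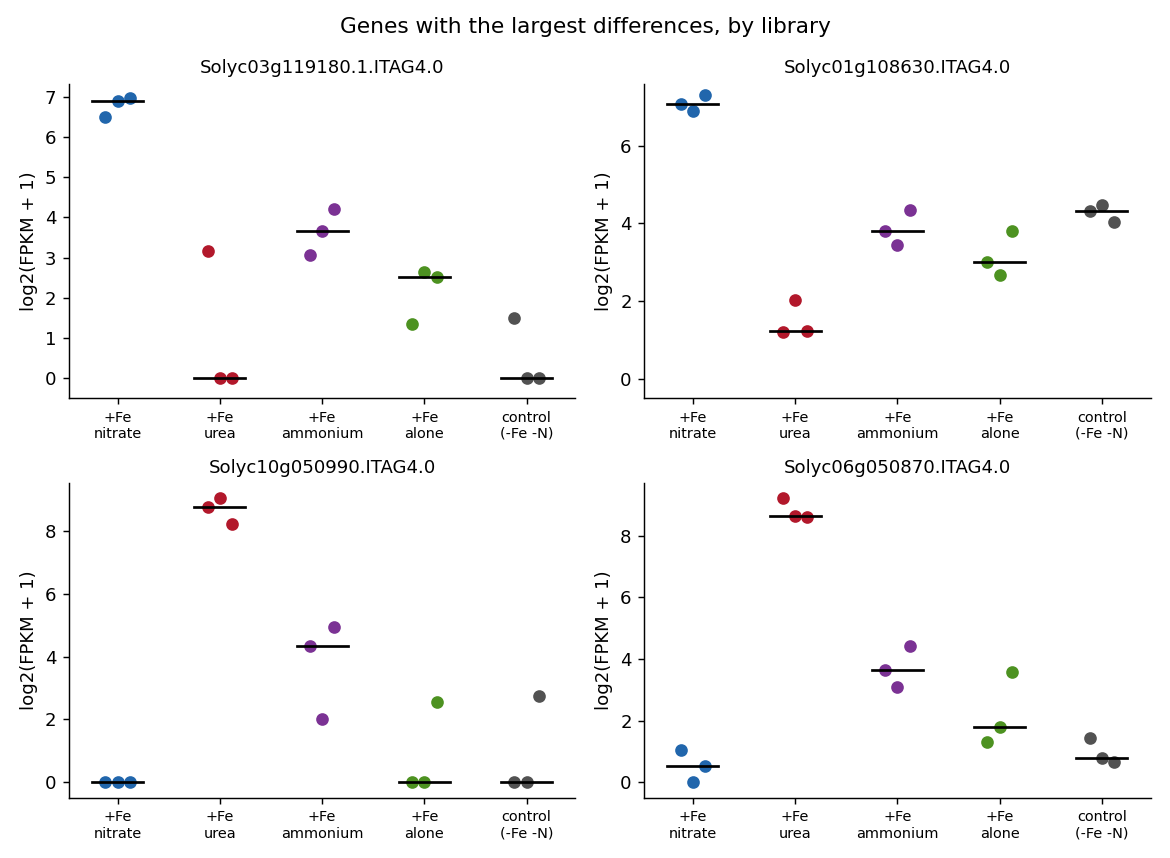
Expression of the 4 printed genes as log2(FPKM + 1) in each of the 15 libraries, by regime, with a black bar at the median of 3 libraries. Nitrate libraries stand above all others in the upper panels and urea libraries above all others in the lower panels, and only Solyc01g108630.ITAG4.0 has its urea libraries below every other regime.

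A small group of genes averaged under 1 FPKM in one regime and at least 10 FPKM in the other, though single libraries of the low regime could exceed 1 FPKM. With a mean under 1 FPKM with nitrate and at least 10 FPKM with urea, 16 genes were called (0.0847% of those tested), 5 of them listed at 0 in all 3 nitrate libraries. Their urea means ran from 11.0 to 460 FPKM with a median of 30.7. These genes were also low elsewhere: 10 of the 16 averaged under 1 FPKM with iron alone, 9 in control roots and 6 with ammonium, and 5 did so in all 3 of these regimes. Only with ammonium did any average 10 FPKM or more, and there 2 did.

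In the other direction, 7 genes averaged at least 10 FPKM with nitrate and under 1 FPKM with urea (0.0371%), with nitrate means of 10.0 to 44.0 FPKM. All 7 lay between 1 and 10 FPKM with iron alone. Control roots were in that range for 6 of them, and ammonium roots for 4, with the other 3 under 1 FPKM with ammonium. Over the alternatives the counts were 11 to 18 genes for a mean under 1 FPKM with nitrate and 5 to 9 for a mean under 1 FPKM with urea.

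To place the differences, the mean log2(FPKM + 1) of each remaining regime was located on a scale on which the nitrate mean is 1 and the urea mean is 0, for the 954 genes (5.05% of those tested) that differed by at least 2-fold. The libraries so placed did not enter either mean. The 452 genes lower with nitrate stood nearer to the nitrate level in all 3 regimes, with medians of 0.67 in ammonium roots, 0.72 with iron alone and 0.86 in control roots. Nearer to nitrate were 310 (68.6%), 337 (74.6%) and 349 (77.2%) of them, and the single libraries gave 281 to 301, 316 to 339 and 341 to 363. In this set urea roots thus differed from the remaining regimes by more than nitrate roots did. Urea roots had the highest mean of the 5 regimes in 397 genes (87.8%), which the choice of genes higher with urea itself favours.

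The 502 genes higher with nitrate were less one-sided. Their median position was 0.43 in ammonium roots, 0.42 with iron alone and 0.59 in control roots. Ammonium roots were nearer to urea in 309 genes (61.6%) and iron-alone roots in 283 (56.4%), whereas control roots were nearer to nitrate in 294 (58.6%). Nitrate roots had the highest mean of the 5 regimes in 366 genes (72.9%) and urea roots the lowest in 380 (75.7%). The choice of genes higher with nitrate than with urea itself favours both. The majority for ammonium rested on 2 libraries: replicates 1 and 2 were nearer to urea in 313 and 328 genes, and replicate 3 in 250 of 502. The single iron-alone libraries were nearer to urea in 275, 296 and 254 genes. With a pseudocount of 0.1 the iron-alone majority turned, with 320 of 688 genes nearer to urea (46.5%), and ammonium roots were nearer to urea in 359 of them (52.2%). With size factors, ammonium roots were nearer to urea in 300 of 450 genes higher with nitrate and nearer to nitrate in 358 of 515 genes lower with it.

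Each of the remaining regimes lay between nitrate and urea roots for most of these genes. The genes were chosen for a wide gap between nitrate and urea, which itself favours a place between them. No such share was computed over all tested genes. The mean of ammonium roots lay between those of nitrate and urea roots in 442 of the genes higher with nitrate (88.0%) and 397 of those lower (87.8%). Iron-alone roots lay between them in 364 (72.5%) and 366 (81.0%), and control roots in 351 (69.9%) and 306 (67.7%). Control roots lay beyond the nitrate level, on the side away from urea, in 106 of the genes higher with nitrate (21.1%) and 118 of those lower (26.1%). They lay beyond the urea level in 45 (8.96%) and 28 (6.19%).

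**Figure D4:**
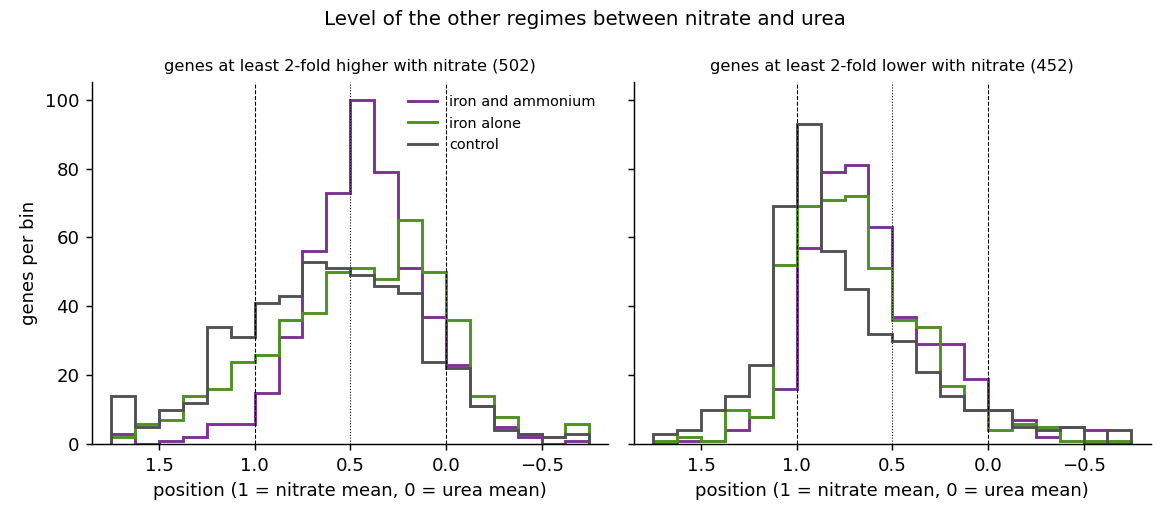
Position of ammonium, iron-alone and control roots on a scale between the nitrate mean (1, left) and the urea mean (0) of log2(FPKM + 1), as the number of genes per bin, for 502 genes at least 2-fold higher and 452 at least 2-fold lower with nitrate. Values beyond the axis are counted in the end bins. In the right panel all 3 distributions lie towards nitrate, with medians of 0.67, 0.72 and 0.86, and in the left panel ammonium roots centre at 0.43.

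The genes that differed by at least 2-fold also took up different parts of the expression total, summed here as FPKM over the tested genes. The 452 genes lower with nitrate held 3.15%, 2.85% and 2.55% of it in the nitrate libraries and 11.2%, 9.39% and 8.93% in the urea libraries. The same genes held 5.19% ± 0.319 with ammonium, 4.05% ± 0.193 with iron alone and 3.24% ± 0.325 in control roots (SD, n = 3 each). The 502 genes higher with nitrate held 6.41%, 6.46% and 7.44% in the nitrate libraries and 1.84%, 2.28% and 2.26% in the urea libraries. They held 3.61% ± 0.302 with ammonium, 3.44% ± 0.169 with iron alone and 4.05% ± 0.125 in control roots (SD, n = 3 each). The values for nitrate and urea describe the genes chosen by that difference and were not tested. Because FPKM is relative, a larger share for some transcripts lowers the values of the others, and the part of this in the smaller differences was not tested.

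Abundant genes were called more often, and their values were more precise. Of the 2834 genes that averaged under 2 FPKM, 7.09% were called, against 20.2% of the 7128 genes at 5 to 20 FPKM and 31.4% of the 1073 genes at 100 FPKM or more. The median standard error of the log2 difference was 0.25, 0.14 and 0.10 in these classes. Differences of at least 2-fold were called in 3.03%, 4.78% and 8.29% of them. The genes with the largest difference in FPKM itself differed in their level with the other form: the 5 highest with nitrate averaged 996 to 3400 FPKM with nitrate and 127 to 1545 FPKM with urea, and the 5 lowest averaged 24.8 to 1268 FPKM with nitrate and 1495 to 3177 FPKM with urea.

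Genes that differed by at least 2-fold lay on every chromosome. Between 16.6% (chromosome 10) and 21.6% (chromosome 7) of the tested genes of chromosomes 1 to 12 were called. Of the 50 tested genes whose identifiers carry chromosome number 0, 2 were called (4.0%). The direction of the 2-fold genes varied more, and as deposited chromosomes 7 and 11 were the most uneven of chromosomes 1 to 12. On chromosome 7, 23 genes were higher (1.62% of those tested there) and 46 lower with nitrate (3.23%). On chromosome 11, 38 were higher (3.02%) and 17 lower (1.35%), against 2.66% and 2.39% of all tested genes. With size factors these counts became 21 and 54, and 32 and 20. Chromosome 8, at 24 higher and 42 lower, was then more uneven than chromosome 11. Some of the 46 belong to runs of neighbours described below.

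Some of the 2-fold genes were neighbours. In identifier order 15 runs of at least 3 consecutive tested genes were all called at least 2-fold in the same direction, 8 runs with 26 genes higher and 7 runs with 24 genes lower with nitrate, on 9 chromosomes. In 14 of the 15 runs every gene was also called at 2-fold with size factors. Untested genes may lie between the members of a run, and members that are near-identical copies may share reads, which could not be checked.

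The longest run held 6 genes on chromosome 7, all lower with nitrate. Their summed level was 59.1, 32.0 and 91.4 FPKM in the nitrate libraries and 843, 617 and 436 FPKM in the urea libraries. It was 182, 88.8 and 274 FPKM with ammonium, 103, 94.5 and 144 FPKM with iron alone and 81.4, 79.0 and 145 FPKM in control roots. The urea libraries lay above all others, while ammonium, iron-alone and control libraries overlapped. Nitrate libraries overlapped those of ammonium and control roots and lay below those of iron alone.

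Both runs of 4 genes were higher with nitrate. The run on chromosome 3 summed to 70.3, 64.3 and 89.5 FPKM with nitrate and 10.1, 18.4 and 11.7 FPKM with urea. Ammonium roots, at 15.8, 14.5 and 15.0 FPKM, lay within the urea range, and iron-alone and control roots lay between the 2 forms at 25.4 to 35.9 and 36.5 to 43.0 FPKM. The run on chromosome 6 summed to 1040, 708 and 787 FPKM with nitrate and 161, 303 and 243 FPKM with urea. Here control roots, at 729, 780 and 868 FPKM, overlapped the nitrate libraries, and the urea libraries lay below all 12 others. Members averaging 367 and 372 FPKM with nitrate made up most of that sum. Another member averaged 64.7 FPKM with ammonium against 47.1 FPKM with nitrate. The remaining member averaged 75.9 FPKM in control roots and 66.7 FPKM with iron alone, against 58.9 FPKM with nitrate. A run of 3 on chromosome 3 began with Solyc03g119180.1.ITAG4.0 and summed to 226, 275 and 279 FPKM with nitrate and 36.1, 32.9 and 24.0 FPKM with urea, against 39.9 to 47.5 FPKM in control roots.

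On the log2(FPKM + 1) scale, the 15185 genes that were not called were bounded more closely than a missing call shows. For 13112 of them (86.3%) the 95% interval of the difference lay within 2-fold in either direction. That scale understates differences of low genes. For genes near or under 1 FPKM such an interval therefore does not bound the fold difference in FPKM itself. For 180 the estimate itself was 2-fold or more without passing the test, with a median standard error of 0.66. At the other end, the whole interval lay beyond 2-fold for 215 genes higher and 224 genes lower with nitrate. These intervals are for single genes and are not adjusted for the number of genes.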

How the data were processed

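Per the labels, polyadenylated RNA of root tissue was sequenced. The authors deposited FPKM per gene for 15 libraries in 1 table. The submitters' processing notes name HISAT2 as the aligner. Its version, the build used and how FPKM was computed are not given in the sources used here. FPKM values are not counts, so no count test was run. Depth is unknown, so no counting interval is given. No library repeated another (0 identical pairs).

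Values were transformed as log2(FPKM + 1), which understates differences of low genes, and a gene was kept on reaching 1 FPKM in 3 or more libraries. With limma 3.58.1 (R 4.3.3; eBayes with a mean-variance trend) regime means were estimated over all 15 libraries together, and nitrate minus urea was tested with Benjamini-Hochberg adjustment. The fit was tested on simulated data. The smallest exact permutation p for 3 against 3 libraries is 0.1, so single genes were not permuted.

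The rule for named genes took the 10 largest differences per direction among called, non-overlapping genes with a mean of at least 5 FPKM, the 5 largest in FPKM, members of pathway lists, and runs of neighbours. Because 0 identifiers could be paired with a name, 2 identifiers per direction are printed and the lists (nitrate reduction and transport, ammonium and urea use, iron uptake and others) were not tested. Members, lists and rules were chosen with earlier results of these data known. Alternatives were other pseudocounts, filters, scalings, no variance trend, a fit of 6 libraries, a replicate block and single libraries left out.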

Additional observations from a re-analysis of the deposited data

How the results depend on the processing

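The counts of called genes and of 2-fold genes stayed within 1.5 times their value under each of the 15 alternatives compared, with 1 exception. So did the counts of genes averaging under 1 FPKM in one regime and at least 10 FPKM in the other. The exception was the genes called higher with nitrate, which numbered 1411 without urea replicate 1. Their range was 1411 to 1887 with single nitrate or urea libraries left out, the only left-out libraries for which these counts were compared. All called genes then ranged from 2537 to 3226 and those called lower from 1126 to 1404. Counts past 4-fold and 8-fold, added after seeing the data as were those past 16-fold and the positions by direction, were 158 and 53 higher and 181 and 80 lower with a pseudocount of 0.1. The replicate number as a block gave 2117 genes higher and 1568 lower. Deviations of same-numbered nitrate and urea libraries correlated at 0.02, 0.02 and 0.04, and not every library correlated best with its own number. No shared effect of the replicate number was thus seen, which cannot exclude a pairing that the labels do not state. As a share of the 2-fold genes, ammonium roots were nearer to nitrate in 52.7%, but in 48.9% without urea replicate 1 or nitrate replicate 1 and 49.0% without nitrate replicate 2, so which form they were nearer to overall is not settled. The iron-alone majority nearer to urea among genes higher with nitrate turned with a pseudocount of 0.1 (46.5%). The other majorities by regime and direction kept their side over the alternatives, but that of control roots among genes higher with nitrate did so narrowly. Without urea replicate 1, control roots were nearer to urea in 203 of 407 of these genes (49.9%). A fit of only the 6 libraries gave 1491 higher and 1144 lower. Without a known depth, precision at low FPKM cannot be stated apart from the spread between libraries.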

Other observations

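The 3 largest differences that did not pass the test were all of at least 16-fold as estimated. They belonged to genes whose libraries of at least 1 regime were split between 0 and higher values. These genes were chosen after their values were seen. Solyc02g088130.1.ITAG4.0 on chromosome 2 was listed at 0, 2373 and 1042 FPKM with nitrate and at 0 in the 3 urea libraries (limma, adjusted p = 0.122). Of the remaining libraries only ammonium replicate 3, at 469 FPKM, and control replicate 1, at 428 FPKM, were above 0. Solyc03g096410.1.ITAG4.0 on chromosome 3 was at 319, 316 and 231 FPKM with nitrate but listed at 513, 0 and 0 FPKM in the urea libraries (adjusted p = 0.315), and each of the other 3 regimes also held a library at 0. Solyc11g050890.ITAG4.0 on chromosome 11 was at 11.8, 0 and 0 FPKM with nitrate while the urea libraries held 38.2, 45.6 and 29.4 FPKM (adjusted p = 0.142). It was also split elsewhere, at 47.4, 12.2 and 0 FPKM with ammonium and 0, 65.8 and 0 FPKM with iron alone. Control roots held 21.4, 0 and 23.2 FPKM. An exact 0 beside values this high can be a failed estimate, and read counts were not among the values used here.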
